A study of Mus musculus with 6 samples.

Results

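The 7 genes Ms4a4a, Ms4a7, Ms4a4c, Ms4a6b, Ms4a6c, Ms4a6d and Ms4a8a of the Ms4a membrane protein family were described across 6 RNA-seq libraries of mouse macrophages. They were taken by symbol from a count table of 54446 genes, which holds 19 genes whose symbol begins with Ms4a. The 7 were chosen from earlier results of the same libraries, among them their regorafenib and polarization ratios, so their values stand here as a description with no test. Bone marrow of BALB/c mice aged 6 to 8 weeks was cultured for 7 days with 20% L929-conditioned medium, a source of macrophage colony-stimulating factor, to give bone marrow-derived macrophages (BMDMs). M0 cells received no polarizing cytokine, M1 cells received interferon-γ (IFN-γ, 20 ng/mL) with lipopolysaccharide (LPS, 50 ng/mL), and M2 cells received interleukin-4 (IL4, 20 ng/mL), the last 2 treatments for 24 h. Each state had 1 control library, labelled as DMSO-treated, and 1 library from cells given regorafenib at 1 µM, starting 1 h before polarization. How long M0 cells were kept with regorafenib was not given in the sources used here. Regorafenib is an oral multikinase inhibitor used in liver and colorectal cancer. With 1 library per condition no difference had a replicate check, and the number of mice behind a library and any pooling were likewise not given.

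MS4A proteins are small proteins that cross the membrane several times and sit beside immune receptors. The best known are CD20, made from Ms4a1 in B cells, and the beta chain of the high-affinity IgE receptor, made from Ms4a2 in mast cells and basophils. Several others are macrophage genes: MS4A4A associates with the fungal receptor dectin-1 in macrophages, the human MS4A4A region is tied genetically to soluble TREM2 and to the risk of Alzheimer's disease, and Ms4a7 is used as a marker of macrophages at the borders of the brain. Ms4a4b is mainly a T cell gene.

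The libraries held 25359309 to 34898342 counts, and mitochondrial genes took 0.961% to 1.53% of them. Macrophage markers were abundant in every library, with a summed level of 19831 to 45151 CPM (counts divided by the library size after scaling by trimmed mean of M-values, TMM, and expressed per 1000000 counts). The B cell markers Pax5 and Ms4a1, the T cell markers Cd3d, Cd3e, Cd3g and Cd8a and the mast cell and basophil markers Ms4a2, Cpa3 and Mcpt8 were at 0 in all 6. Lck and Hdc of those lists were not, and are named after their values were seen. Lck, a T cell kinase, had 13 to 47 counts, with the most in M1 control. Hdc, which makes histamine, had 12 and 0 counts in M0 control and M0 with regorafenib, 96 and 262 in the M1 libraries and at most 2 in either M2 library. The granulocyte list summed to 84.7 to 158 CPM, most of it Mpo, which encodes myeloperoxidase, while its defining genes Ms4a3 and Ly6g were at 0. The dendritic cell list was 0.455 to 2.75 CPM in M0 and M2 and 32.0 and 38.8 CPM in the M1 libraries, of which most was Ccr7. The monocyte list was highest in M1, at 368 CPM in control and 116 CPM with regorafenib, against 23.7 to 67.6 CPM elsewhere. Most of the M1 control sum was Hp and Vcan, with 6489 and 2954 counts. Ccr2 of the same list had 29 counts there and 325 in M0 control, and these genes are described below. The fibroblast list was 3.19 to 10.2 CPM. The part of these other cells in any ratio was not tested. In bulk RNA, fewer cells of a type and less RNA per cell cannot be told apart.

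The 19 Ms4a genes lie side by side on chromosome 19 (GRCm38), from 10962293 to 11640851, a stretch of 679 kb. The active ones formed a block. Ms4a14 and Ms4a7 are neighbors on the minus strand, followed on the plus strand by Ms4a4a, Ms4a4c, Ms4a4b, Ms4a6c, Ms4a6b and Ms4a4d, and then by Ms4a6d on the minus strand, and in this block only Ms4a4d was at 0 in every library. Of the 12 Ms4a genes outside the 7, Ms4a14 reached 436 counts and Ms4a4b 35 counts in their highest library, and the other 10 had 0 or 1 count in every library. Ms4a8a, the one of the 7 that lies apart at the far side of the B cell gene Ms4a1, had 0, 0, 1, 2, 1 and 2 counts in M0 control, M0 with regorafenib, M1 control, M1 with regorafenib, M2 control and M2 with regorafenib. That is at or under the floor of 3 counts, which stands for 0.0822 to 0.124 CPM, so Ms4a8a was not detectable at this depth and gets no ratio. The other 6 passed the minimum of 10 counts in each comparison. The map of the cluster shows this block.

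**Figure D1:**
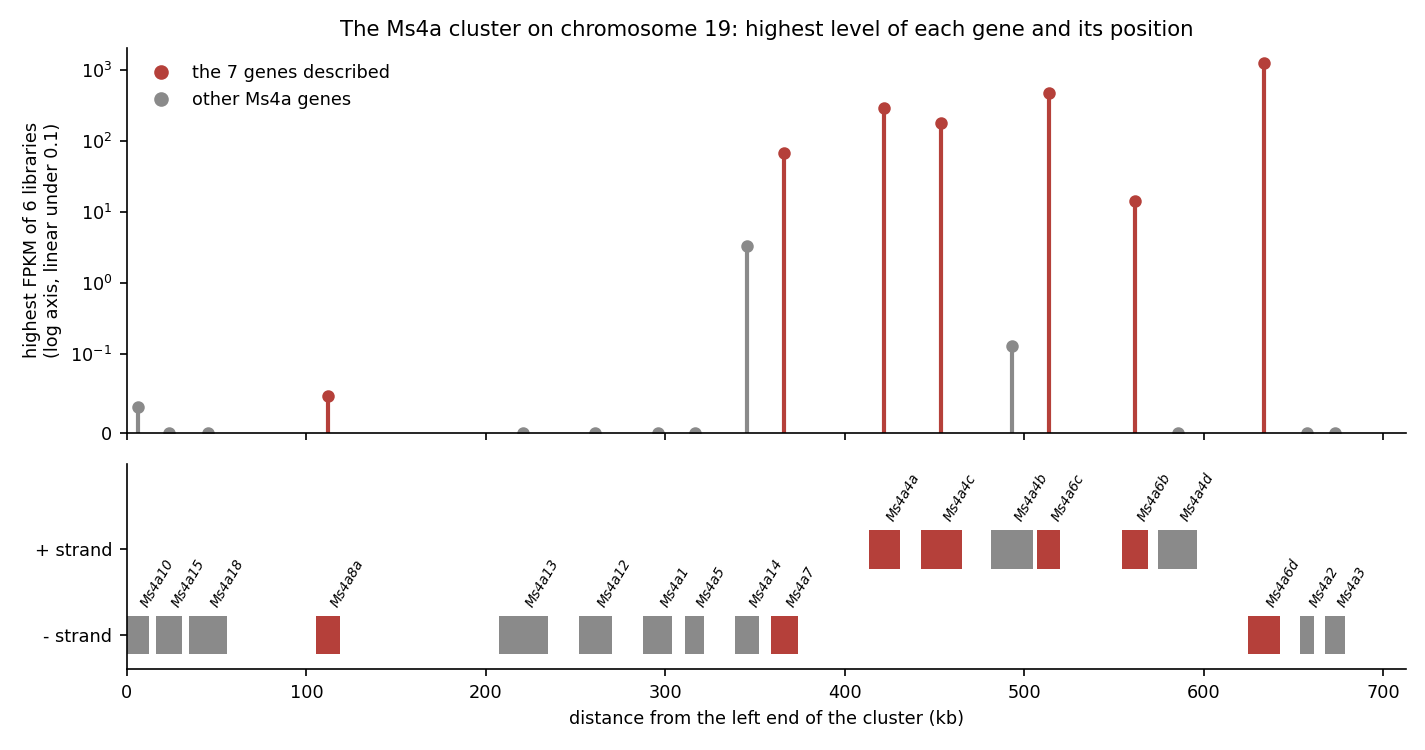
Upper panel, highest level of each Ms4a gene over the 6 libraries (FPKM, log axis, linear under 0.1); lower panel, its position by strand in kb from the left end of the cluster. The 6 tall members reached 14.1 to 1237 FPKM, while Ms4a8a stayed at 0.0462 FPKM or lower and Ms4a14 reached 3.25 FPKM.

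Per unit of length, Ms4a6d was the highest of the family in all 6 libraries. Its level in FPKM, here the TMM-scaled CPM divided by the length of all exons of the gene in kilobases, was 163 in M0 control, 163 in M0 with regorafenib, 1226 in M1 control, 1237 in M1 with regorafenib, 223 in M2 control and 141 in M2 with regorafenib. The M1 libraries stood well above the other 4, and M2 with regorafenib was the lowest. Ms4a6c came next in every library but the last, at 60.2, 81.0, 411, 462 and 32.0 FPKM in the same order. In M2 with regorafenib it had 33.1 FPKM, below Ms4a7 at 62.8 FPKM and Ms4a4a at 52.6 FPKM. Ms4a6d alone made up 65.1% of the summed FPKM of the family in M0 control and 45.6% with regorafenib. The same share was 56.9% in M1 control, 60.8% in M1 with regorafenib, 76.4% in M2 control and 47.9% in M2 with regorafenib. In M0 and M2 the shares of Ms4a7 and Ms4a4a were larger with regorafenib. Ms4a7 made up 6.39% of the family in M0 control and 18.8% with regorafenib, and 6.66% and 21.3% in M2. Ms4a4a went from 0.264% to 9.90% in M0 and from 4.70% to 17.8% in M2, but from 13.4% to 5.18% in M1. Lengths taken from the longest transcript in place of all exons left the order of the members the same in every library. Without division by length the order was not the same. By CPM, Ms4a7 stood above Ms4a6d in M0 with regorafenib, at 299 against 282, and in M2 with regorafenib, at 280 against 245.

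**Figure D2:**
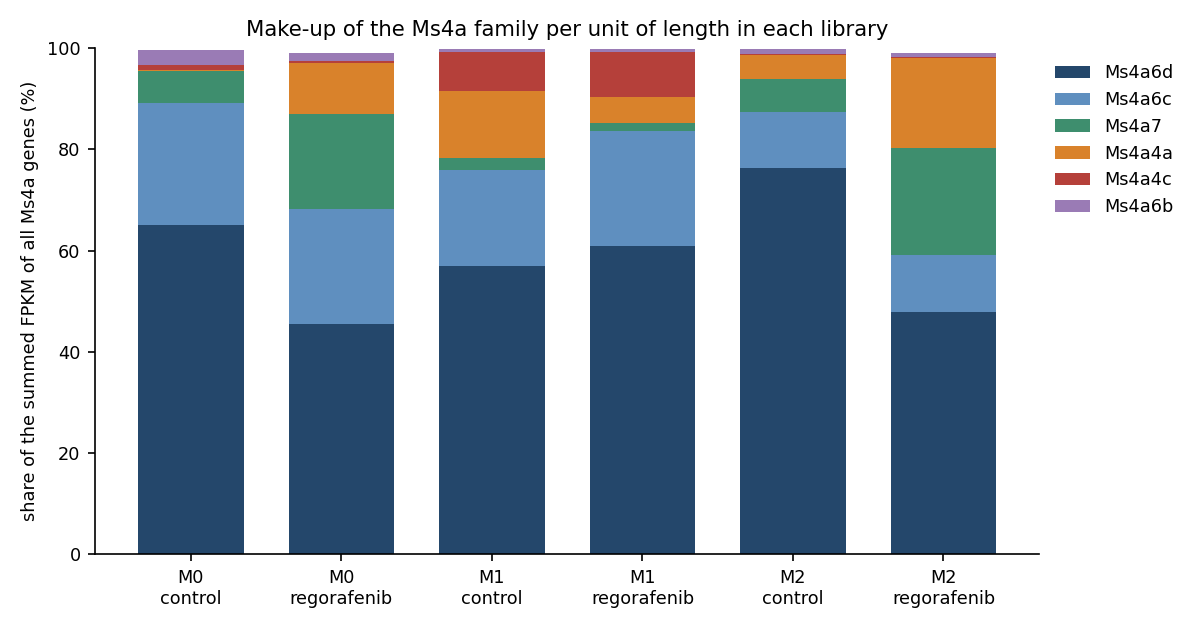
Share of the summed FPKM of all Ms4a genes (%, vertical axis) held by each of 6 members in each library (horizontal axis). Ms4a6d is the largest segment in every bar, from 45.6% to 76.4%, and the segments of Ms4a7 and Ms4a4a are taller with regorafenib in M0 and M2.

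Ms4a4a, the mouse namesake of the dectin-1 partner, had the largest regorafenib ratios of the 7. It lies at chr19:11375523-11392790 on the plus strand and overlaps no other annotated gene. Its level was 0.553 CPM in M0 control, from 17 counts, and 29.5 CPM in M0 with regorafenib, from 974 counts. In M1 it was 241 CPM in control and 88.1 CPM with regorafenib, from 6218 and 2123 counts. In M2 control it was 11.5 CPM, from 419 counts, and in M2 with regorafenib 44.0 CPM, from 1230 counts. M1 control was therefore the highest library and M0 control the lowest, with 435-fold between them, and no 2 neighbors in the order of the 6 had overlapping 95% counting intervals. On the log2 scale its regorafenib to control ratio was 5.74 in M0 (95% interval 5.05 to 6.52), -1.45 in M1 (-1.52 to -1.38) and 1.94 in M2 (1.78 to 2.10). These intervals are conditional exact binomial intervals on the counts and cover counting error only. In linear terms Ms4a4a was 53.4-fold higher in M0, 2.73-fold lower in M1 and 3.83-fold higher in M2. Of the 13964 genes compared in M0, 99.97% had a lower ratio than Ms4a4a. The M0 ratio rests on 17 counts in its denominator, and with 1 CPM added to both values it was 4.30.

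Ms4a7, the border macrophage marker, had regorafenib ratios with the same signs as Ms4a4a. It lies at chr19:11321039-11336146 on the minus strand, 39376 bases from Ms4a4a. Its level was 71.3 CPM in M0 control and 299 CPM in M0 with regorafenib, from 2190 and 9857 counts. In M1 it was 211 CPM in control and 151 CPM with regorafenib, and in M2 it was 86.7 CPM in control and 280 CPM with regorafenib. The highest 2 libraries were the regorafenib libraries of M0 and M2, and the lowest 2 were their controls, with both M1 libraries in between. Regorafenib against control gave Ms4a7 a log2 ratio of 2.07 in M0 (2.001 to 2.136), -0.48 in M1 (-0.54 to -0.42) and 1.69 in M2 (1.63 to 1.75).

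Marker lists of other cells were set beside Ms4a4a and Ms4a7, and some moved with the same signs while others did not. Macrophage sums were 28183 and 45151 CPM in control and regorafenib M0, 25648 and 28019 CPM in M1 and 19831 and 30515 CPM in M2. Of the 6 monocyte markers listed, only 3 or 4 were above the minimum. With regorafenib, 2 of 3 were called higher in M0, where 9.47% of all genes were past 2-fold higher. In M1, 3 of 4 were called lower, against 3.46%. In M2, 2 of 3 were called higher, against 6.15%, and 1 lower, against 5.07%. The following 4 are named after their values were seen. Hp, which encodes haptoglobin, had 16 counts in M0 control and 365 with regorafenib, 6489 and 1429 in the M1 libraries, and only 4 and 26 in the M2 libraries. Its log2 ratios were 4.41, -2.08 and 3.08. Ccr2, a chemokine receptor of monocytes, had 325 and 757 counts in the M0 libraries, 29 and 19 in the M1 libraries and 280 and 434 in the M2 libraries. Its log2 ratios were 1.12, -0.51 and 1.02. Vcan, a matrix proteoglycan, was lower in all 3 states, at -0.40, -1.06 and -1.29. Ly6c2, which marks classical monocytes, had 0 to 4 counts in M0 and M2 and 25 and 8 in M1. The summed granulocyte list went from 84.7 CPM in control to 158 CPM with regorafenib in M0, from 153 to 106 CPM in M1 and from 88.8 to 132 CPM in M2. Of its genes, Mpo had 2064 to 5124 counts in the 6 libraries and log2 ratios of 0.95, 0.05 and 0.58 in M0, M1 and M2, and S100a8, a calcium-binding protein of neutrophils and monocytes, had -0.54, -1.78 and -0.42. The summed fibroblast list went from 3.19 to 10.2 CPM in M0, from 8.86 to 6.68 CPM in M1 and from 3.56 to 5.76 CPM in M2. Its collagen genes Col1a1 and Col1a2 had log2 ratios of 1.52 and 1.93 in M0 and of 0.80 and 0.70 in M2. In M1 the collagen genes were at 0.07 and 0.08, while Dcn, another matrix proteoglycan, was at -1.26. The granulocyte and fibroblast sums thus had the signs of Ms4a4a and Ms4a7 in all 3 states. Monocyte sums were 55.4 and 67.6 CPM in control and regorafenib M0, 368 and 116 CPM in M1 and 25.2 and 23.7 CPM in M2. Dendritic cell sums were 0.521 and 0.455, 32.0 and 38.8, and 0.685 and 2.75 CPM in the same order. Mast cell and basophil sums were 0.423 and 0.0303, 3.83 and 10.9, and 0.0822 and 0.250 CPM. The monocyte sum had the other sign in M2, and the last 2 lists had it in M0 and M1. Col1a1 and Dcn were named after their values were seen. The part of monocytes, granulocytes and fibroblasts in the ratios of Ms4a4a and Ms4a7 was not tested.

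Ms4a14, the neighbor of Ms4a7 on the same strand at a distance of 6584 bases, had regorafenib ratios with the same signs. It had 88, 436, 316, 215, 107 and 335 counts in M0 control, M0 with regorafenib, M1 control, M1 with regorafenib, M2 control and M2 with regorafenib. Those counts were 5.48% and 5.57% of the counts of both genes together in the M1 libraries, and 3.27% to 4.24% in the M0 and M2 libraries. With regorafenib against control, the log2 ratio of Ms4a14 was 2.21 in M0 (1.87 to 2.55), -0.46 in M1 (-0.71 to -0.20) and 2.03 in M2 (1.71 to 2.36). No word of 100 bases, the length of a read, was shared between the annotated transcripts of Ms4a7 or Ms4a14 and those of any other gene. Whether transcripts of the one run into the other was not tested.

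The promoter windows of Ms4a4a and Ms4a7 are shown because both genes had regorafenib ratios above 0 in M0 and M2 and below 0 in M1. In M1 Ms4a4a was past 2-fold lower and Ms4a7, at -0.48, was not. Promoters of 6 of the 7 members were found in RefSeq (GRCm38.p6), each 250 bases before to 50 bases after the annotated start. No entry was found for Ms4a6d, and of the 2 entries for Ms4a7 only the first was searched. The windows were searched on both strands for 6 motifs, chosen with the sequences in view: GGAAGT for ETS factors such as PU.1, GAAANNGAA for interferon regulatory factors, TTCNNNGAA for the IFN-γ activated site, the STAT6 motif (TTC and GAA with 4 free bases between them), TGANTCA for AP-1 and TGACGTCA for CREB. The window of Ms4a4a is chr19:11375238-11375537 on the plus strand and that of Ms4a7 is chr19:11336097-11336396 on the minus strand. Each is written 5′ to 3′ and capitals mark the matches.
Ms4a4a: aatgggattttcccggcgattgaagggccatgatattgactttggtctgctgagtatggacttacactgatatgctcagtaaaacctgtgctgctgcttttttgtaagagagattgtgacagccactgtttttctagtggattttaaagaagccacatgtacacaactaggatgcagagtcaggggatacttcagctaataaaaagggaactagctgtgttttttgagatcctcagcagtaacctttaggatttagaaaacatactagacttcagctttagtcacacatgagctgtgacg
Ms4a7: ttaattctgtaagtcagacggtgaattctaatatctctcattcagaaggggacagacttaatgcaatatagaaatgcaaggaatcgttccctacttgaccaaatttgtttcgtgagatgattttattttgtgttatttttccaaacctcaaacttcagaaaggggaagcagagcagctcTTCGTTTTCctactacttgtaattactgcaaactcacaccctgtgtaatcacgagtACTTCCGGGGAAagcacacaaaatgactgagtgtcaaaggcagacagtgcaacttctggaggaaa

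The Ms4a4a window held no match to the 6 motifs. The Ms4a7 window held an ETS match that begins 15 bases before the start, a STAT6 match that overlaps it and an interferon regulatory factor match 71 bases before the start. Of 32851 RefSeq promoters of the same length, 23.8% held the ETS letters, 8.56% the interferon regulatory factor letters, 8.30% the IFN-γ activated site, 6.95% the STAT6 letters, 7.81% the AP-1 letters and 1.79% the CREB letters. A match is a run of letters and not a measured binding site.

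**Figure D3:**
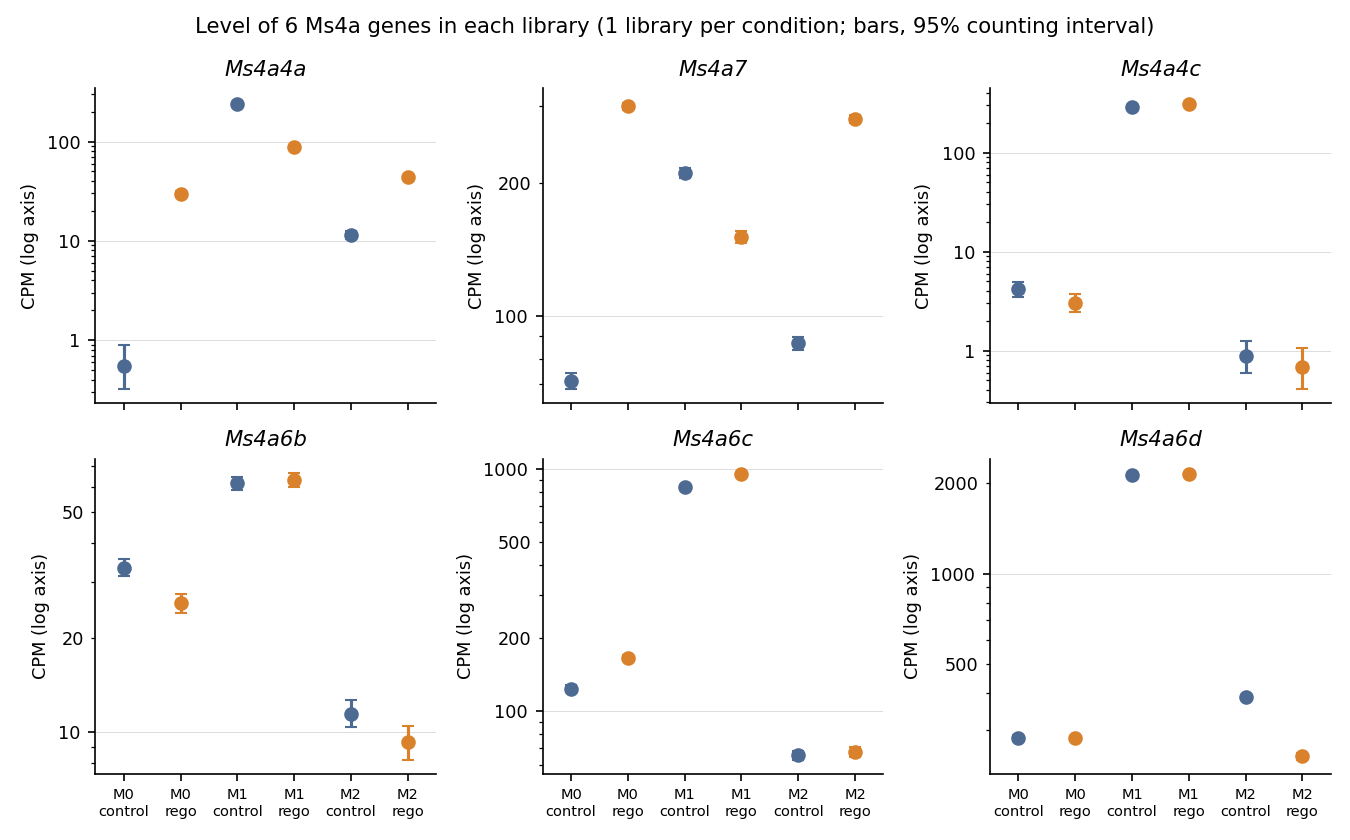
TMM-scaled CPM (log axis) of 6 members in each of the 6 libraries, blue for control and orange for regorafenib (rego); points are single libraries and bars their 95% counting interval. Ms4a4a and Ms4a7 separate control from regorafenib in M0 and M2, and Ms4a4a and the other 4 members have both M1 libraries above all M0 and M2 libraries.

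Ms4a4c, Ms4a6b, Ms4a6c and Ms4a6d differed more between M1 and the other states than between control and regorafenib. Ms4a4c, at chr19:11404770-11427246 on the plus strand, was high only in the M1 libraries. It had 4.17 CPM in M0 control and 3.03 CPM in M0 with regorafenib, from 128 and 100 counts. It had 289 and 313 CPM in the M1 libraries, from 7458 and 7549 counts, and 0.876 and 0.679 CPM in the M2 libraries, from 32 and 19 counts. The control and regorafenib values lay close together within each state and far apart between states. Its log2 ratio of M1 to M0 was 6.11 in control (5.86 to 6.38) and 6.69 with regorafenib (6.41 to 6.99), a 69.3-fold and a 103-fold difference. Its log2 ratio of M2 to M0 was -2.25 in control (-2.86 to -1.68) and -2.16 with regorafenib (-2.95 to -1.44). These ratios rest on 32 and 19 counts in M2, and with 1 CPM added to both values they were -1.46 and -1.26.

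Ms4a6c, at chr19:11469366-11482192 on the plus strand, had the same order of states on a higher base. Its level was 123 CPM in M0 control and 166 CPM in M0 with regorafenib, 842 and 947 CPM in M1, and 65.5 and 67.8 CPM in M2. The log2 ratio of M1 to M0 was 2.77 in control (2.72 to 2.82) and 2.51 with regorafenib (2.47 to 2.55), and that of M2 to M0 was -0.91 (-0.99 to -0.84) and -1.29 (-1.37 to -1.22). Of the 100-base words of Ms4a6c transcripts, 45.8% also occur, on either strand, in transcripts of BE692007, an antisense gene that overlaps it, or of Prdm11. BE692007 was given 2 to 95 counts, against 1897 to 22820 for Ms4a6c. The libraries were made with a stranded kit, but which strand column was counted was not given in the sources used here, so the Ms4a6c level is the less certain one for reads in that overlap.

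Ms4a6b, at chr19:11516512-11531256 on the plus strand, showed the same order of states. Its level was 33.3 CPM in M0 control and 25.7 CPM in M0 with regorafenib, 61.8 and 63.3 CPM in M1, and 11.5 and 9.29 CPM in M2. The log2 ratio of M1 to M0 was 0.89 in control (0.78 to 1.01) and 1.30 with regorafenib (1.18 to 1.42), and that of M2 to M0 was -1.54 (-1.70 to -1.37) and -1.47 (-1.67 to -1.26). Ms4a6b and Ms4a4c had opposite-strand neighbors that overlap them, Gm19261 and Gm5692, with at most 1 count in any library. Of the 100-base words of Ms4a4c, 1.66% were shared with Ms4a4b, which had 10 to 35 counts per library, and Ms4a6b shared none.

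Ms4a6d, at chr19:11586604-11604849 on the minus strand, had the highest level per unit of length. Its level was 283 CPM in M0 control, 282 CPM in M0 with regorafenib, 2128 and 2146 CPM in the M1 libraries, 387 CPM in M2 control and 245 CPM in M2 with regorafenib. The pairs of M0 and of M1 libraries had overlapping counting intervals, and the pair of M2 libraries did not. The log2 ratio of M1 to M0 was 2.91 in control (2.88 to 2.94) and 2.93 with regorafenib (2.89 to 2.96). The log2 ratio of M2 to M0 was 0.45 in control (0.41 to 0.49) and -0.20 with regorafenib (-0.25 to -0.16), so Ms4a6d was above its M0 level in M2 control, where Ms4a4c, Ms4a6b and Ms4a6c were below theirs.

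The promoter windows of Ms4a4c, Ms4a6b and Ms4a6c are shown because these 3 genes had the same order of states, with M1 highest and M2 lowest, in control and in regorafenib libraries. The sequences are from RefSeq (GRCm38.p6), and capitals mark matches to the same 6 motifs. The RefSeq start of Ms4a4c at 11407661 and that of Ms4a6b at 11518559 lie inside the Gencode gene. All 3 windows are on the plus strand, at chr19:11407411-11407710 for Ms4a4c, chr19:11518309-11518608 for Ms4a6b and chr19:11469118-11469417 for Ms4a6c.
Ms4a4c: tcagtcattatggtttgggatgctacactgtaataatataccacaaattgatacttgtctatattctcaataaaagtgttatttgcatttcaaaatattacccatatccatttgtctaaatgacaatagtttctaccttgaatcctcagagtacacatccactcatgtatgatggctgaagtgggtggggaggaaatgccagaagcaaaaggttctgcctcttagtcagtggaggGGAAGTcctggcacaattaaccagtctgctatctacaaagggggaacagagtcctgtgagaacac
Ms4a6b: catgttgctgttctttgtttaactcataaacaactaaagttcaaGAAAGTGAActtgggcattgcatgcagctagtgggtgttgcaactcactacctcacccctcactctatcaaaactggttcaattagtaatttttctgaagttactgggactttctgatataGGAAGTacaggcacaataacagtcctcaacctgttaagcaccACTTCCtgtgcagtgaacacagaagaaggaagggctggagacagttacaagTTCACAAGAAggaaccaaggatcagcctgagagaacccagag
Ms4a6c: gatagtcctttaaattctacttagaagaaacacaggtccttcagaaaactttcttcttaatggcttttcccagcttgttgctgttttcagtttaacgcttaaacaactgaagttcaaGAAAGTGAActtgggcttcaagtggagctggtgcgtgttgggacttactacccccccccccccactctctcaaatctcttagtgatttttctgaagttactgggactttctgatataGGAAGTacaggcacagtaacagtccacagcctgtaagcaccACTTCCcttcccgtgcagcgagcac

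The windows of Ms4a6b and Ms4a6c resemble each other over most of their length. Their best local alignment covered 213 columns with 83.1% identical bases and an unbroken identical run of 48 bases, while no other pair of the 6 windows aligned over more than 17 columns. Both held an interferon regulatory factor match with the same letters, GAAAGTGAA, which begins 206 bases before the start of Ms4a6b and 133 bases before that of Ms4a6c, and both held 2 ETS matches. A further STAT6 match lay 8 bases after the start of Ms4a6b only. Ms4a4c held an ETS match 15 bases before its start and none of the other letters. The Ms4a8a window, which is not shown, held an AP-1 match 244 bases before its start.

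Regorafenib was compared with control within each state to ask how the inhibitor shifts macrophage genes. A gene was called when the ratio reached 2-fold and 1 of the 2 libraries had at least 10 counts. In M0, 2 of the 7 members were called higher, Ms4a4a and Ms4a7, where 9.47% of all 13964 genes were called higher, and 0 members were called lower, where 10.9% of genes were. In M1, 0 members were called higher, against 1.76% of 13440 genes, and 1 member, Ms4a4a, was called lower, against 3.46%. In M2, 2 members were called higher, again Ms4a4a and Ms4a7, against 6.15% of 13813 genes, and 0 were called lower, against 5.07%. Since the members were chosen with these ratios known, nothing is read from the counts. The median log2 ratio over the 6 members above the minimum was 0.21 in M0, 0.02 in M1 and -0.13 in M2, where the median over all genes compared was 0.00, -0.02 and -0.03.

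The other 4 detected members stayed within 2-fold of their control in every state. Ms4a4c had log2 ratios of -0.46 in M0 (-0.85 to -0.07), 0.12 in M1 (0.07 to 0.16) and -0.37 in M2 (-1.27 to 0.50). Ms4a6b had -0.38 (-0.51 to -0.24), 0.03 (-0.07 to 0.14) and -0.30 (-0.53 to -0.08). Ms4a6c had 0.43 (0.37 to 0.49), 0.17 (0.14 to 0.20) and 0.05 (-0.04 to 0.14). The widest of these intervals, that of Ms4a4c in M2, runs from a more than 2-fold lower value to a higher one and rests on 19 and 32 counts. Ms4a6d had 0.00 in M0 (-0.05 to 0.04), 0.01 in M1 (0.00 to 0.03) and -0.66 in M2 (-0.70 to -0.62), which is 1.58-fold lower with regorafenib.

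**Figure D4:**
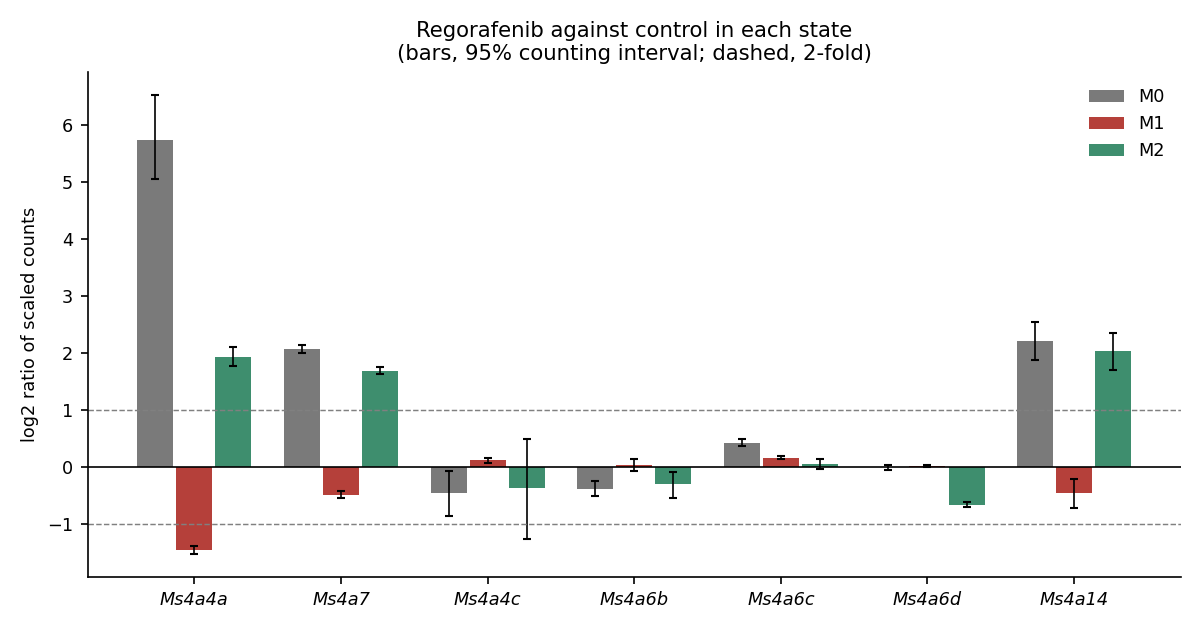
log2 ratio of regorafenib to control (vertical axis) for 6 members and Ms4a14 in M0, M1 and M2; error bars are 95% counting intervals and dashed lines mark 2-fold. Ms4a4a, Ms4a7 and Ms4a14 are above the upper line in M0 and M2 and below 0 in M1, and the other members stay between the lines.

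Polarization was compared with M0 separately in control and in regorafenib libraries, to ask whether a gene's response to the cytokines was the same under the inhibitor. These comparisons share their M0 library with each other and with the regorafenib comparison in M0, so their values are given side by side only. M1 against M0 in control called 5 of the 7 members higher, Ms4a4a, Ms4a7, Ms4a4c, Ms4a6c and Ms4a6d, where 17.4% of 14168 genes were called higher, and 0 lower, where 19.7% were. With regorafenib it called 5 higher, with Ms4a6b in place of Ms4a7, against 16.3% of 14159 genes, and 0 lower, against 21.6%. With total counts as the scale, Ms4a6b was at 0.89 there and no longer called, and Ms4a7 was called lower at -1.40. M2 against M0 in control called 1 member higher, Ms4a4a, against 4.69% of 13830 genes, and 2 lower, Ms4a4c and Ms4a6b, against 7.61%. With regorafenib it called 0 higher, against 4.41% of 13841 genes, and 3 lower, Ms4a4c, Ms4a6b and Ms4a6c, against 5.18%.

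In M1 against M0, Ms4a4a and Ms4a7 were the members whose ratio differed most between the control and the regorafenib libraries. For Ms4a4a the log2 ratio of M1 to M0 was 8.76 in control (8.08 to 9.54) and 1.58 with regorafenib (1.47 to 1.69). Its ratio of M2 to M0 was 4.37 in control (3.68 to 5.17) and 0.57 with regorafenib (0.45 to 0.70). The control ratios rest on 17 counts in M0 control, and with 1 CPM added to both values they were 7.28 for M1 and 3.01 for M2. All 4 ratios were above 0, and the smaller ones have the higher M0 library with regorafenib as their base. For Ms4a7 the log2 ratio of M1 to M0 was 1.57 in control (1.49 to 1.64) and -0.98 with regorafenib (-1.04 to -0.93), so M1 stood above M0 without the inhibitor and below M0 with it. Its ratio of M2 to M0 was 0.28 (0.20 to 0.36) and -0.10 (-0.14 to -0.05), a difference of 0.38. In M2 against M0 the ratio of Ms4a6c also differed by 0.38 and that of Ms4a6d by 0.65 between control and regorafenib libraries.

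**Figure D5:**
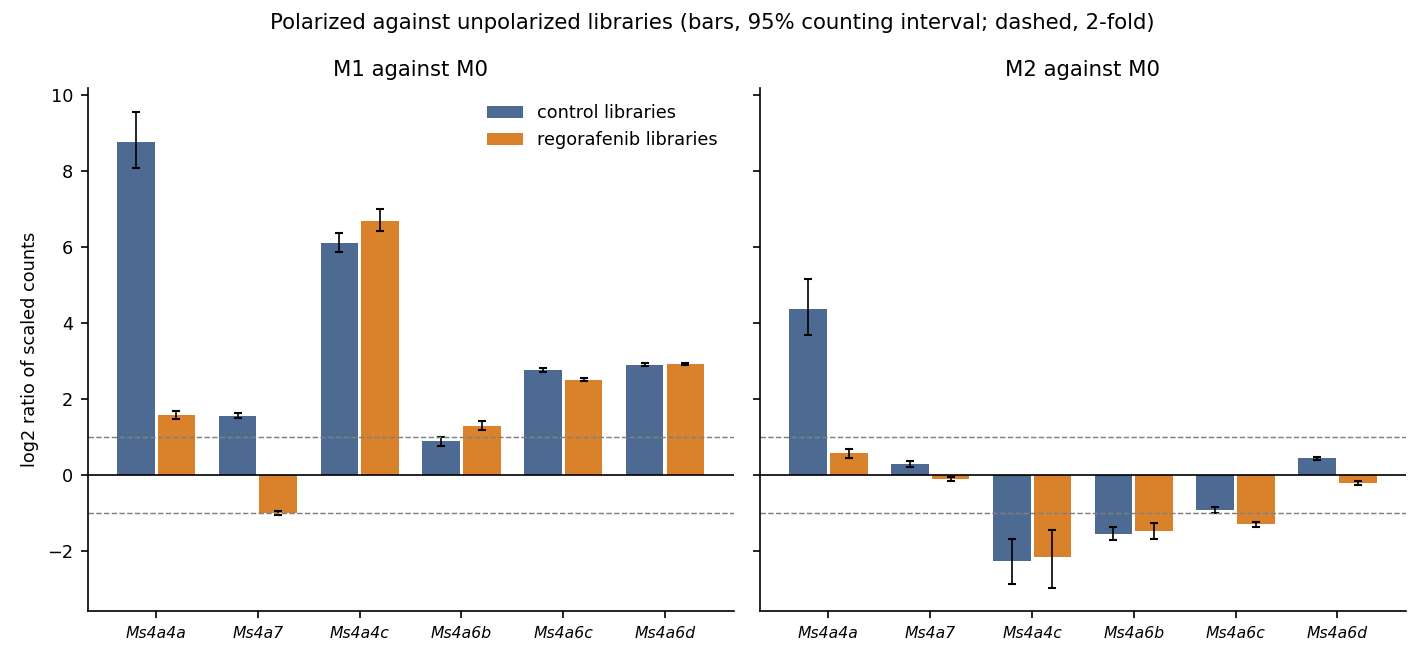
log2 ratio of M1 to M0 (left) and of M2 to M0 (right) for 6 members, in control and in regorafenib libraries; error bars are 95% counting intervals and dashed lines mark 2-fold. Bars of a pair differ by at most 0.65 for Ms4a4c, Ms4a6b, Ms4a6c and Ms4a6d, while in M1 against M0 Ms4a4a has 8.76 in control and 1.58 with regorafenib and Ms4a7 has 1.57 and -0.98.

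The genes of the dectin-1 and TREM2 receptors and of their signaling, 8 in number, were set beside the members. The list was chosen with earlier results known. Of these 8 genes, 1 was called higher and 0 lower with regorafenib in M0, where 9.47% and 10.9% of all genes were. In M1 and M2 0 were called in either direction, where 1.76% to 6.15% of genes were, and nothing is read from these counts. The medians for M0, M1 and M2 were 0.51, 0.04 and 0.36. The called gene was Clec7a, which encodes dectin-1, with 273 counts in M0 control, 1333 in M0 with regorafenib, 148 and 112 in M1, and 6133 and 7996 in M2. Its log2 ratio was 2.19 in M0 (1.997 to 2.379), -0.30 in M1 (-0.67 to 0.06) and 0.77 in M2 (0.72 to 0.82), so it was higher in M0 and M2 as Ms4a4a was. Trem2 was 0.48, -0.21 and 0.42, and its adaptor Tyrobp was 0.24, 0.13 and 0.05. In M1 against M0 control, Trem2 had a log2 ratio of -3.91 where Ms4a4a, Ms4a6c and Ms4a6d were higher.

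The interferon-stimulated genes, an antiviral set, were set beside the members in the same way. All 10 listed interferon genes were called lower with regorafenib in M0, where 10.9% of all genes were, with a median log2 ratio of -2.27. Isg15, a ubiquitin-like antiviral protein, had -2.95. In the same comparison Ms4a4c and Ms4a6b were at -0.46 and -0.38, and Ms4a6c was at 0.43. With regorafenib in M1, 0 of the 10 were called higher, against 1.76% of genes, or lower, against 3.46%, with a median of -0.13. In M2, 4 were called lower, against 5.07%, with a median of -0.83. In M1 against M0 control all 10 were called higher, against 17.4% of genes, with a median of 3.04. In M2 against M0 control 9 of 10 were called lower, against 7.61%, with a median of -2.17. Ms4a4c, Ms4a6b and Ms4a6c had the same signs in those last 2 comparisons, but Ms4a6b in M1, at 0.89, and Ms4a6c in M2, at -0.91, were not called. Ms4a4a, Ms4a6d and Ms4a7 had the opposite sign in M2, at 4.37, 0.45 and 0.28, and of these only Ms4a4a was called.

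The cytokine responses themselves were present in the libraries. All 10 listed IFN-γ and LPS genes were called higher in M1 against M0 control, where 17.4% of all genes were. In M2 against M0 control, 9 of the 9 listed IL4 genes above the minimum were called higher, against 4.69%. Tissue macrophage genes, among which Ms4a7 is often counted, split with regorafenib in M0. Of the 15 above the minimum, 3 were called higher, against 9.47% of genes, and 4 lower, against 10.9%, with a median of 0.17. Apoe, which carries lipid between cells, had 1184 counts in M0 control and 41460 with regorafenib. Its log2 ratio there was 5.03 (4.94 to 5.11), near that of Ms4a4a, but in M1 and M2 it was 0.09 and 3.30. Ms4a4a was at -1.45 and 1.94 in those states. Pf4, a platelet and macrophage chemokine, had 385 and 85 counts in the M0 libraries, a log2 ratio of -2.28 (-2.64 to -1.94).

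Tmem176a and Tmem176b, which encode relatives of the MS4A proteins outside the cluster, were low but went with Ms4a4a in M0 and M2. They overlap each other on opposite strands of chromosome 6, so that without the strand setting their reads cannot be fully told apart. Tmem176b had 15, 330, 4, 16, 8 and 123 counts in M0 control, M0 with regorafenib, M1 control, M1 with regorafenib, M2 control and M2 with regorafenib. With regorafenib against control its log2 ratio was 4.36 in M0 (3.61 to 5.21), 2.10 in M1 (0.47 to 4.14) and 4.33 in M2 (3.30 to 5.57). In M1 it was thus on the other side of 0 from Ms4a4a. Tmem176a had 2, 92, 1, 7, 5 and 41 counts, and in M0 was at least 28.6-fold higher with regorafenib when control was set to the floor of 3 counts in that library.

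The detected members were compared pair by pair across the 6 libraries. On log2(CPM + 1), Pearson's r was 0.99 for Ms4a4c with Ms4a6c, 0.97 for Ms4a4c with Ms4a6d, 0.91 for Ms4a4c with Ms4a6b and 0.93 for Ms4a6b with Ms4a6c, each over n = 6 libraries. Ms4a6d had r of 0.93 with Ms4a6c and 0.80 with Ms4a6b. Ms4a7 had r of 0.06 to 0.18 with Ms4a4c, Ms4a6c and Ms4a6d, -0.04 with Ms4a6b and 0.70 with Ms4a4a. Ms4a4a had r of 0.69 with Ms4a6d, 0.64 with Ms4a6c, 0.63 with Ms4a4c and 0.34 with Ms4a6b, so it was about as close to Ms4a6d as to Ms4a7. These values describe 6 libraries in 3 states that share their scaling, and the M1 libraries weigh heavily in them.

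The genes whose pattern was most like each member were sought among 11313 genes, each with 100 counts or more in 1 library or more. For Ms4a4c they were Nod2, a bacterial sensor, Pilrb1 and Hcar2, a receptor for nicotinic acid, with r of 0.9997, 0.9993 and 0.9992. All 3 were highest in M1 with regorafenib. Nod2 ranged 15.7-fold and Hcar2 386-fold, where Ms4a4c ranged 461-fold, and Pilrb1, with 2 counts in its lowest library, gets no range. For Ms4a6c they were Aox1, Ikbip and Siglece (r of 0.9974, 0.9969 and 0.9965), which ranged 6.26-fold, 1.38-fold and 208-fold, where Ms4a6c ranged 14.4-fold. For Ms4a6d they were Tspan31, Ublcp1 and Cflar, an inhibitor of caspase-8 (r of 0.9983, 0.998 and 0.9975), which ranged 1.78-fold, 2.18-fold and 9.36-fold, where Ms4a6d ranged 8.75-fold.

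Of the genes searched, 52 had r of at least 0.95 with Ms4a4a and 68 with Ms4a7, against 81 for Ms4a6b, 665 for Ms4a6c, 1013 for Ms4a4c and 1082 for Ms4a6d. The nearest to Ms4a4a were Gpatch2l, Iba57 and Uros (r of 0.9976, 0.996 and 0.9936), but these ranged only 1.41-fold, 1.48-fold and 1.41-fold over the libraries, where Ms4a4a ranged 435-fold. The nearest to Ms4a7 were Gm24187, Harbi1 and Mlxip (r of 0.9869, 0.9845 and 0.9834), which ranged 1.65-fold to 1.90-fold, where Ms4a7 ranged 4.19-fold. The nearest to Ms4a6b were Msantd2, Prkab1 and Elk3 (r of 0.9963, 0.9915 and 0.9908), which ranged 1.69-fold to 2.64-fold, where Ms4a6b ranged 6.81-fold. For these 3 members the most similar genes had a smaller range over the 6 libraries, and Mlxip and Msantd2 were highest in another library than Ms4a7 and Ms4a6b.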

How the data were processed

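Stranded mRNA libraries were read as paired 100-base reads. Per the labels and the submitters' processing notes, reads were trimmed with cutadapt 2.4 and mapped to GRCm38 with STAR 2.7.2a. The authors counted reads per Gencode gene with STAR, and the deposited values are raw counts, 1 library per condition. Counts were scaled by TMM (edgeR 4.0.16) to CPM. Of 54446 gene IDs, 53229 matched a later Gencode release with their version, 1180 without it and 37 not at all. FPKM is CPM per kilobase of the gene's exons. A ratio is that of scaled counts, with a count of 0 set to 0.5 and a 95% conditional exact binomial interval. A gene was compared with at least 10 counts in 1 of the 2 libraries and called at 2-fold. The ratio and its interval were checked on simulated counts that hold counting error only. That check says nothing of spread between cultures. No significance test was run. Named were the members, other Ms4a genes and Tmem176 genes with 10 counts, the 3 genes most like each member, and at most 4 genes a list with ratios or counts above 0, besides markers at 0. Members, lists and motifs were chosen with earlier results of these data known. Alternatives were RLE scaling, total counts, 1 CPM added, no minimum, a 4-fold threshold and transcript length.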

Additional observations from a re-analysis of the deposited data

Results flagged for a closer look

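For 4 members the ratios in the states or treatments compared had 95% counting intervals on opposite sides of 0, with 1 library on each side, and none of these differences was tested. For Ms4a4a the regorafenib to control log2 ratio was higher by 7.19 in M0 and by 3.39 in M2 than in M1, where it was below 0. Its M0 ratio of 5.74 rests on 17 counts in control, and was 4.30 with 1 CPM added to both values. For Ms4a7 the regorafenib to control log2 ratio was higher by 2.55 in M0 and by 2.17 in M2 than in M1. The same 4 libraries give the M1 against M0 contrast, so its log2 ratio was also higher by 2.55 in control than with regorafenib. The M2 against M0 log2 ratio of Ms4a7 was higher by 0.38 in control, from 0.28 to -0.10. For Ms4a4c the regorafenib ratio in M0 minus that in M1 was -0.58, with -0.46 in M0 and 0.12 in M1. For Ms4a6d the M2 against M0 log2 ratio was 0.45 in control and -0.20 with regorafenib, a difference of 0.65.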

How the results depend on the processing

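A fit with state as a block, which would give 1 regorafenib effect over the 3 states, was not run. The number of members past 2-fold in M1 with regorafenib was 1, and became 2 with no minimum on counts, through Ms4a8a at 1 and 2 counts, and 0 at 4-fold. Ms4a8a likewise raised the number from 2 to 3 in M2 with regorafenib, from 5 to 6 for M1 against M0 in control and with regorafenib, and from 3 to 4 for M2 against M0 with regorafenib. At 4-fold it became 0 in M2 with regorafenib, 3 for M1 against M0 with regorafenib, 1 for M2 against M0 with regorafenib, 4 for M1 against M0 control and 2 for M2 against M0 control. Total counts in place of TMM moved the median of all genes by -0.44 in M1 against M0 control and by -0.41 with regorafenib, and by less than 0.1 in the other comparisons. On that scale Ms4a7 was past 2-fold lower in M1 against M0 with regorafenib, at -1.40, Ms4a6b was no longer past 2-fold higher there, at 0.89, and Ms4a6c was past 2-fold lower in M2 against M0 control, at -1.002. Of 42 member ratios, 1 below 2-fold changed sign with total counts, and 0 did with RLE scaling or with 1 CPM added. Adding 1 CPM moved ratios that rest on few counts toward 0, for Ms4a4a to 7.28 in M1 against M0 control and for Ms4a4c from -2.16 to -1.26 in M2 against M0 with regorafenib. With 1 library per condition, spread between cultures is unknown.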
